A study of Mus musculus with 6 samples.

Results

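The long arm of chromosome 2 between bands 2q24 and 2q32 holds PMS1, NFE2L2, TTN and ASNSD1, and 59 genes of that stretch are described here in parental and oxaliplatin-resistant HCT116 cells. The 59 genes are listed roughly in their order along the chromosome, out of 31456 rows in the deposited count table, and each symbol had 1 row. They were chosen by position around PMS1 and with the resistant-to-parental differences of these same libraries already known. The differences of the 59 genes are therefore a description, given with standard errors and without p-values. Whether a member passed the threshold of the fit over all genes is stated only to sort the members, and is no independent evidence of a difference. HCT116 is an established human colorectal carcinoma cell line, and oxaliplatin is a platinum drug used against colorectal cancer. The series has 3 libraries from the parental form and 3 from the resistant form, all from the same line, and the labels name no other difference in genotype or agent. The labels do not say how the resistant form was derived, whether it is a clone or a pool, or whether drug was present at harvest. Separate cultures are not named in the labels either, so standard errors and adjusted p-values cover only library-to-library spread, which may be technical.

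Bulk RNA sequencing was summarised as read counts per gene, with totals of 20246878 to 32138423 counts per library. At these totals 3 counts, taken as the floor of detection, came to between 0.0975 and 0.153 CPM per library (counts scaled to the TMM-adjusted library size). Floors and counting intervals cover counting error only. Parental replicate 2 stood somewhat apart from parental replicates 1 and 3, with a chi-square per gene of 11.3 and 11 against 2.01 for the other pair, and 2.69 to 4.51 among the resistant pairs. No pair of libraries agreed within sampling noise. The epithelial marker genes EPCAM, KRT8, KRT18 and KRT19 were expressed in both forms, and the summed level of the 7 epithelial markers with a row was 2765 to 3156 CPM in the parental and 2577 to 2722 CPM in the resistant libraries. Among them CDX2 had means of 11 ± 1.19 CPM and 10.3 ± 0.857 CPM (SD, n = 3), and VIL1 was at or near 0. Summed fibroblast markers were at 22.6 to 26.1 CPM in parental and 39.0 to 44.8 CPM in resistant libraries, mostly from COL1A1, with the other 6 under 1 CPM, and summed leukocyte markers at 12.4 to 13.0 and 15.6 to 18.3 CPM, mostly from CD68. Their part in the differences below was not tested. The 3 endothelial markers summed to at most 1.47 CPM.

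The products of these genes have little in common apart from their address. PMS1 is a homolog of the bacterial mismatch repair protein MutL, and HCT116 is known for deficient mismatch repair. NFE2L2 encodes NRF2, which switches on antioxidant genes and which KEAP1 normally marks for degradation. TTN encodes titin, the giant elastic protein of the muscle sarcomere, and ASNSD1 encodes a protein with an asparagine synthetase domain. The stretch also holds the HOXD cluster, integrin genes and many housekeeping genes of RNA processing, mitochondria and transport. The files hold RNA only, so the DNA of the stretch was not examined. In bulk RNA a change in the number of cells that use a gene and a change in RNA per cell cannot be told apart.

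A gene is called here when its adjusted p in edgeR's quasi-likelihood test, fitted across all 16605 genes tested, is below 0.05. Of the 59 members 57 were tested, and WIPF1 and SLC40A1 had too few counts. The call applied to 47 of the 57, and 10 were not called. Of the 47, 32 had the higher level in the resistant form and 15 the lower level. Across all genes tested 53.8% were called, 27.3% higher and 26.5% lower. Among the members 23 were called with a level at least 2-fold higher, against 5.58% of all genes tested. Nothing is read from these counts, since the members were chosen on this contrast. The median log2 fold change of the 57 was 0.46, and it was 0.02 over all genes tested. The share of all counts taken by the members was 0.346% to 0.375% in parental and 0.708% to 0.740% in resistant libraries.

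**Figure D1:**
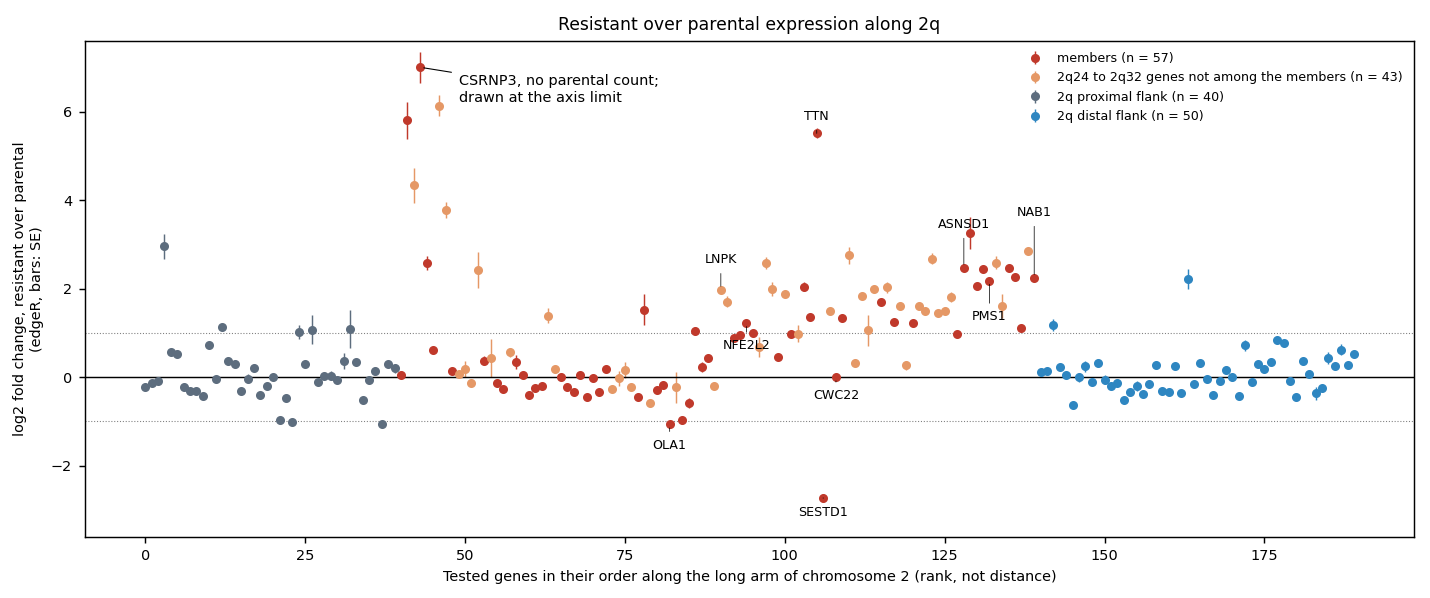
Log2 fold change of resistant over parental cells (vertical axis, bars show the SE) for the tested genes of the long arm of chromosome 2 in their order (horizontal axis, rank and not distance), with members in red, other listed genes of the stretch in orange and the flanking lists in grey and blue. From LNPK to NAB1 nearly all points lie above 0, with SESTD1 at -2.72 and CWC22 at 0, and most points of the distal flank lie near 0. CSRNP3, with no parental count, is drawn at the limit of 7.

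In chromosomal order 28 of the 32 higher calls among the members fell into 3 stretches, and BBS5, HAT1, RAPGEF4 and GPR155 lay singly between the first and the second. Each stretch is by definition a run of consecutive tested members called higher. The members were chosen on this contrast, and whether higher calls cluster along the chromosome was not tested. The first ran from SCN3A to TTC21B with 4 members, the second from ATF2 to TTN with 10 members, and a last one from UBE2E3 to NAB1 with 14 members. SESTD1, which was lower, and CWC22, which was not called, separated the second stretch from the third, and SLC40A1, which lies inside the third, was not tested. The members between TTC21B and ATF2 were mostly lower or not called, and those from CDCA7 to SCRN3 formed a run of 5 lower calls. NFE2L2 and TTN lay in the second stretch and ASNSD1 and PMS1 in the third. The 4 named genes therefore did not sit in a single unbroken run of higher calls. In the plot along 2q the points from LNPK to NAB1 lie above 0, at differing heights, except those of SESTD1 and CWC22. ZNF385B, which lies between SESTD1 and CWC22 and is not a member, had a log2 fold change of 1.51.

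**Figure D2:**
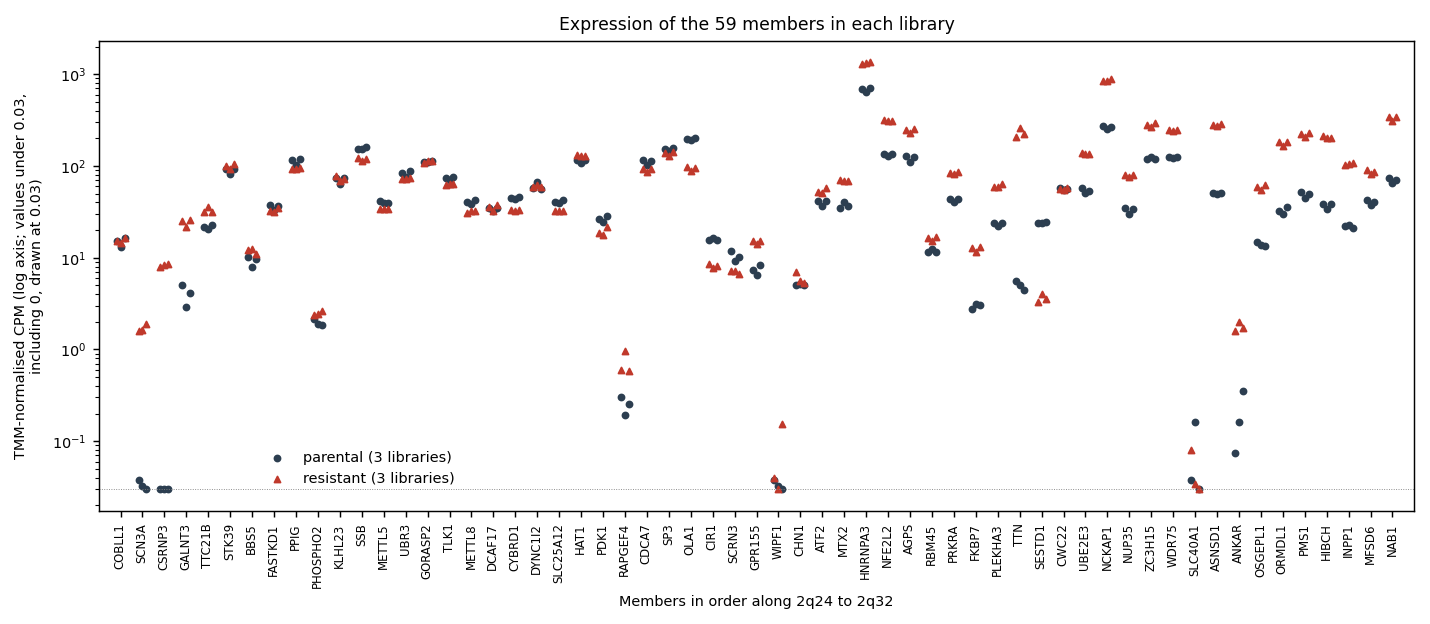
TMM-normalised CPM on a log axis (vertical) of the 59 members in order along 2q24 to 2q32 (horizontal), with 3 parental libraries as dark circles and 3 resistant libraries as red triangles. Values under 0.03, including 0, are drawn at 0.03. From MTX2 to NAB1 the resistant triangles lie above the parental circles except at SESTD1, CWC22 and SLC40A1.

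The third stretch holds PMS1. Values below are CPM in replicates 1, 2 and 3 of each group. PMS1 had 52.6, 44.5 and 49.7 CPM in the parental and 225, 209 and 230.3 CPM in the resistant libraries, a level higher by 4.53-fold (log2 fold change 2.18 ± 0.06 SE). All 3 resistant libraries lay above all 3 parental libraries, and this held for each of the 14 members of the third stretch. Those 14 were grouped by their higher calls, so the separation adds no evidence. Groups were apart, in either direction, for 49 of the 57 tested members. The share over all genes tested was not counted, so nothing is read from this number. The neighbours of PMS1 on either side showed differences of similar size. ORMDL1, a regulator of serine palmitoyltransferase in sphingolipid synthesis, had 32.6, 30.2 and 35.6 CPM in the parental and 184, 167 and 182 CPM in the resistant libraries and was higher by 5.43-fold (log2 fold change 2.44 ± 0.07 SE). HIBCH, an enzyme of valine breakdown in mitochondria, had 38.5, 34.1 and 38.8 CPM in the parental and 209.8, 202 and 203 CPM in the resistant libraries and was higher by 5.53-fold (log2 fold change 2.47 ± 0.06 SE). ASNSD1 had 50.7, 49.1 and 51 CPM in the parental and 277, 272 and 286 CPM in the resistant libraries, higher by 5.54-fold (log2 fold change 2.47 ± 0.05 SE). The 3 parental libraries of ASNSD1 agreed closely, with a mean of 50.2 ± 0.985 CPM against 278 ± 7.24 CPM (SD, n = 3). On the far side of ORMDL1 the direction was the same. OSGEPL1, a mitochondrial enzyme of tRNA modification, had 15, 13.7 and 13.4 CPM in the parental and 59, 54.2 and 61.3 CPM in the resistant libraries, higher by 4.14-fold (log2 fold change 2.05 ± 0.07 SE). INPP1, an inositol polyphosphate phosphatase, had 22.2, 22.6 and 21 CPM in the parental and 103, 105 and 107 CPM in the resistant libraries, higher by 4.77-fold (log2 fold change 2.25 ± 0.05 SE). In both genes the parental and resistant libraries formed separate tight groups. NAB1, a corepressor of EGR transcription factors and the last member in order, had 73.6, 65.4 and 70.7 CPM in the parental and 340.0, 306 and 343 CPM in the resistant libraries, higher by 4.72-fold (log2 fold change 2.24 ± 0.06 SE). From ASNSD1 to NAB1 the difference was thus above 4-fold for each tested member other than MFSD6. MFSD6, a transporter family gene between INPP1 and NAB1, had 42.5, 37.8 and 40.5 CPM in the parental and 89.9, 82.1 and 86.8 CPM in the resistant libraries, higher by 2.14-fold (log2 fold change 1.10 ± 0.06 SE). ANKAR, an ankyrin and armadillo repeat gene, was near the floor in the parental libraries with 0.0752, 0.163 and 0.356 CPM in the parental and 1.61, 2.02 and 1.73 CPM in the resistant libraries. Its 14 parental and 144 resistant counts gave a ratio of 9.89 with an exact 95% counting interval of 5.71 to 18.5.

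The tested members of the third stretch before ASNSD1 differed by no more than 3.25-fold. NCKAP1, a subunit of the WAVE complex that drives actin branching, had 269.6, 254 and 268 CPM in the parental and 852, 836 and 883 CPM in the resistant libraries, higher by 3.25-fold (log2 fold change 1.70 ± 0.05 SE). UBE2E3, a ubiquitin-conjugating enzyme, had 56.9, 51.3 and 53.6 CPM in the parental and 139, 134 and 136 CPM in the resistant libraries, higher by 2.53-fold (log2 fold change 1.34 ± 0.05 SE). NUP35, a nuclear pore protein, had 34.6, 30.3 and 34.4 CPM in the parental and 80.6, 75.8 and 80.3 CPM in the resistant libraries, higher by 2.39-fold (log2 fold change 1.26 ± 0.06 SE). Each of these 3 genes kept its libraries within a narrow band in both groups. ZC3H15, which partners a translation-linked GTPase, had 120.4, 125 and 118 CPM in the parental and 281, 268 and 294 CPM in the resistant libraries, higher by 2.32-fold (log2 fold change 1.21 ± 0.05 SE). WDR75, a factor of ribosome assembly in the nucleolus, had 125, 121 and 127 CPM in the parental and 246, 241 and 245 CPM in the resistant libraries, higher by 1.96-fold (log2 fold change 0.97 ± 0.04 SE). WDR75 was the smallest difference among the 14 members. SLC40A1, the iron exporter ferroportin, had 6 counts over the parental and 3 over the resistant libraries, too few for a fold.

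The second stretch held NFE2L2 and TTN. NFE2L2 had 135, 129 and 136 CPM in the parental and 317, 308 and 310.4 CPM in the resistant libraries, higher by 2.34-fold (log2 fold change 1.23 ± 0.04 SE). Its parental mean was 133 ± 3.61 CPM and its resistant mean 312 ± 5.0 CPM (SD, n = 3). HNRNPA3, an RNA-binding protein of the ribonucleoprotein family and the most abundant member, had 697, 648 and 703 CPM in the parental and 1284, 1341 and 1357 CPM in the resistant libraries, higher by 1.94-fold (log2 fold change 0.96 ± 0.05 SE). HNRNPA3 has many processed pseudogenes, so the division of its reads is uncertain, and its pseudogene HNRNPA3P12 had at most 1.49 CPM in any library. MTX2, a protein of mitochondrial outer membrane import, had 34.4, 40.1 and 36.8 CPM in the parental and 70.8, 68.1 and 68.1 CPM in the resistant libraries, higher by 1.86-fold (log2 fold change 0.89 ± 0.06 SE). AGPS, an enzyme of plasmalogen synthesis in peroxisomes, had 128, 109 and 127 CPM in the parental and 245, 229 and 254 CPM in the resistant libraries, higher by 2.0-fold (log2 fold change 1.0 ± 0.06 SE). PRKRA, a protein activator of the kinase PKR, had 43.9, 40.1 and 44 CPM in the parental and 83, 81.1 and 86.1 CPM in the resistant libraries, higher by 1.96-fold (log2 fold change 0.97 ± 0.05 SE). These 4 genes and NFE2L2 thus differed by about the same factor, from 1.86-fold to 2.34-fold. PLEKHA3, a phosphoinositide-binding protein of the Golgi, had 24.1, 22.3 and 24.1 CPM in the parental and 59.5, 58.5 and 63.2 CPM in the resistant libraries, higher by 2.57-fold (log2 fold change 1.36 ± 0.06 SE). FKBP7, a peptidyl-prolyl isomerase of the endoplasmic reticulum, had 2.78, 3.12 and 3.05 CPM in the parental and 12.7, 11.4 and 13 CPM in the resistant libraries, higher by 4.14-fold (log2 fold change 2.05 ± 0.10 SE). The smallest differences in the stretch were those of ATF2, a leucine zipper transcription factor, with a log2 fold change of 0.42 ± 0.07 (SE), and of the RNA-binding protein gene RBM45, with 0.46 ± 0.07 (SE).

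TTN differed far more than its neighbours. It had 5.52, 5.01 and 4.48 CPM in the parental and 205, 259 and 224 CPM in the resistant libraries, higher by 45.5-fold (log2 fold change 5.51 ± 0.11 SE). Its resistant mean was 229 ± 27.5 CPM and its parental mean 5.0 ± 0.522 CPM (SD, n = 3), and the groups were far apart beside that spread. TTN is among the longest human transcripts, so per length its level was low, at 0.06 FPKM (fragments per kilobase of transcript, scaled to depth) in the parental and 3.54 FPKM in the resistant libraries. TTN-AS1, a non-coding gene on the opposite strand, had 5.15, 4.88 and 4.79 CPM in the parental and 22.3, 25.4 and 22.5 CPM in the resistant libraries, with a log2 fold change of 2.25 ± 0.08 (SE). The strand setting of the counting is not given in the sources used here, so reads of TTN and TTN-AS1 cannot be told apart. Of the 6 further muscle genes with a row, ACTA1, CKM, MYBPC1 and TNNT3 were below 1 CPM in all libraries, and the summed level of the 6 was 4.10 to 6.01 CPM in the parental and 4.63 to 5.68 CPM in the resistant libraries. The sums overlapped between the groups, but the 2 more abundant genes went opposite ways. DES, the muscle intermediate filament protein desmin, fell from 1.99 ± 0.548 CPM to 0.988 ± 0.0461 CPM (SD, n = 3, edgeR adjusted p = 0.0027). NEB, the thin filament protein nebulin, rose from 2.72 ± 0.422 CPM to 3.71 ± 0.463 CPM (SD, n = 3, edgeR adjusted p = 0.034).

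**Figure D3:**
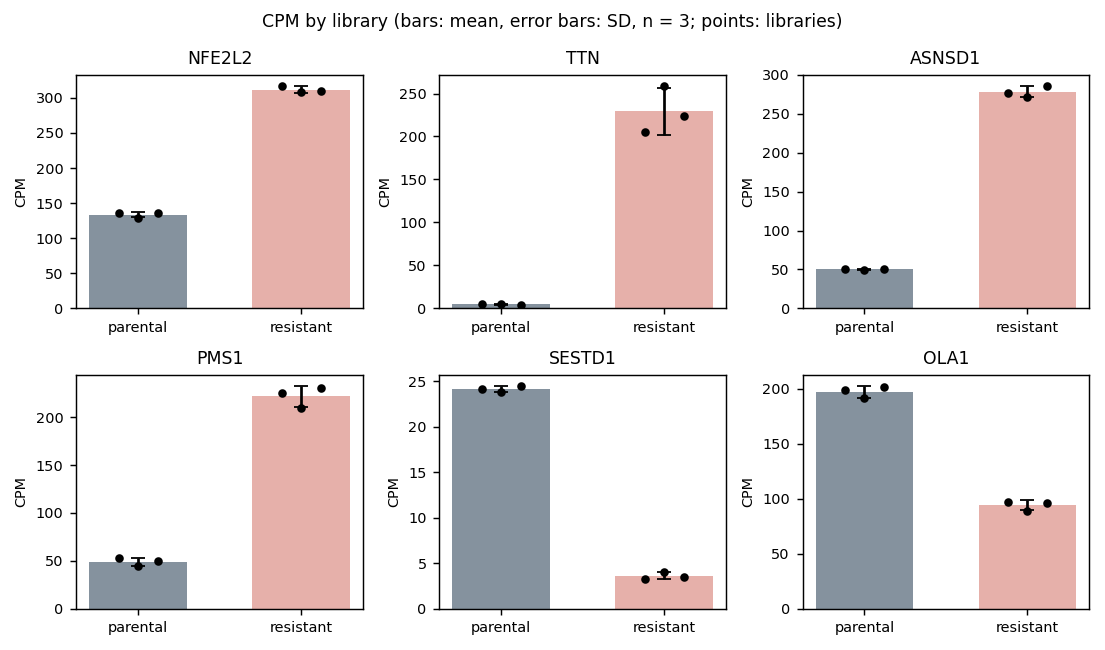
CPM (vertical axis) of NFE2L2, TTN, ASNSD1, PMS1, SESTD1 and OLA1 in parental and resistant cells, where bars are means, error bars the SD of 3 libraries and points the libraries. The first 4 are higher in every resistant library, and SESTD1 and OLA1 are lower in every resistant library.

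SESTD1, the next member after TTN, went the other way. SESTD1, a protein with spectrin repeats and a lipid-binding SEC14-like domain, had 24.2, 23.9 and 24.5 CPM in the parental and 3.29, 4.07 and 3.55 CPM in the resistant libraries, and was 6.61-fold lower (log2 fold change -2.72 ± 0.09 SE). This was the largest fall among the members, and the libraries of the groups did not overlap. CWC22, a splicing factor of the exon junction complex, followed with 57.4, 55.2 and 56 CPM in the parental and 56.1, 54.7 and 57.7 CPM in the resistant libraries, and its groups overlapped (log2 fold change 0.00 ± 0.05 SE). On the FPKM values the fall of SESTD1 was smaller, with a log2 ratio of means of -1.59 without a pseudocount. The difference of mean log2 values was -1.55 at a pseudocount of 0.1 and -1.27 at a pseudocount of 1. The cause was not tested. TTN had a log2 ratio of mean FPKM of 5.88 without a pseudocount. Its difference of mean log2 values was 4.51 and 2.10 at pseudocounts of 0.1 and 1.

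The first stretch, near the start of the order, consisted of genes with little or no parental expression, apart from TTC21B. CSRNP3, a nuclear protein rich in cysteine and serine, had no count in any parental library and 7.92, 8.24 and 8.52 CPM in the resistant libraries. Its 659 resistant counts, set against the highest floor of a parental library (3 counts, 0.153 CPM), put it at least 53.9-fold higher. SCN3A, the pore-forming subunit of a neuronal voltage-gated sodium channel, had 0.0376, 0.0325 and 0 CPM in the parental and 1.61, 1.64 and 1.89 CPM in the resistant libraries. Its 2 parental and 137 resistant counts were low but present in every resistant library. The ratio was 65.9, with an exact 95% counting interval of 17.9 to 549. GALNT3, an enzyme that starts mucin-type O-glycosylation, had 5.07, 2.93 and 4.12 CPM in the parental and 25, 21.4 and 25.6 CPM in the resistant libraries, higher by 5.99-fold (log2 fold change 2.58 ± 0.16 SE). TTC21B, a component of intraflagellar transport in cilia, had 21.6, 20.5 and 22.5 CPM in the parental and 31.6, 35.4 and 31.2 CPM in the resistant libraries, higher by 1.53-fold (log2 fold change 0.61 ± 0.07 SE). CSRNP3 and SCN3A were thus detected almost only in the resistant form, while TTC21B was used by both forms and differed by about 1.5-fold. COBLL1, the member before SCN3A in order, had 15, 13.2 and 16.3 CPM in the parental and 15.2, 14.5 and 16.3 CPM in the resistant libraries, with overlapping groups.

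The members between the first and second stretches mostly differed by less than 1.5-fold. The larger differences are given first. OLA1, an Obg-like ATPase, had 199, 191 and 201 CPM in the parental and 97.2, 89.2 and 96.2 CPM in the resistant libraries, and was 2.09-fold lower (log2 fold change -1.07 ± 0.05 SE). CIR1, a corepressor of Notch-responsive genes, had 15.7, 16.3 and 15.7 CPM in the parental and 8.48, 7.7 and 8.09 CPM in the resistant libraries, and was 1.97-fold lower (log2 fold change -0.98 ± 0.07 SE). SCRN3, a secernin family gene, had 11.9, 9.23 and 10.3 CPM in the parental and 7.11, 7.18 and 6.59 CPM in the resistant libraries, and was 1.5-fold lower (log2 fold change -0.59 ± 0.11 SE). All parental libraries lay above all resistant libraries for these 3 neighbours. GPR155, a lysosomal cholesterol sensor and the next member in order, had the opposite direction, with 7.37, 6.44 and 8.25 CPM in the parental and 15.4, 14.2 and 15.3 CPM in the resistant libraries, higher by 2.05-fold (log2 fold change 1.04 ± 0.10 SE). RAPGEF4, a cAMP-regulated exchange factor, was low with 0.301, 0.195 and 0.255 CPM in the parental and 0.603, 0.958 and 0.578 CPM in the resistant libraries, higher by 2.87-fold (log2 fold change 1.52 ± 0.35 SE). WIPF1, which binds the Wiskott-Aldrich syndrome protein, had 2 parental and 5 resistant counts, which gave a ratio of 2.40 with an exact 95% counting interval of 0.394 to 25.2.

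The other members between the first and the second stretch stayed within 1.5-fold. Of the members called lower 11 did so, with log2 fold changes from -0.44 to -0.17. They included CYBRD1, a ferric reductase (-0.44 ± 0.05 SE), PDK1, a kinase that restrains pyruvate dehydrogenase (-0.44 ± 0.08 SE), and SSB, the La protein that protects nascent RNA polymerase III transcripts (-0.41 ± 0.05 SE). The mitochondrial carrier gene SLC25A12 and the tRNA methyltransferase gene METTL8 each had a log2 fold change of -0.34. The remaining genes of this kind were CDCA7, PPIG, METTL5, TLK1, UBR3 and SP3, from -0.30 to -0.17. Over all members those called higher by less than 1.5-fold were ATF2, RBM45, BBS5, a subunit of the BBSome (0.37 ± 0.10 SE), and HAT1, a histone acetyltransferase (0.18 ± 0.04 SE). Those not called were COBLL1, STK39, FASTKD1, PHOSPHO2, KLHL23, GORASP2, DCAF17, DYNC1I2, CHN1 and CWC22, with log2 fold changes from -0.13 for FASTKD1 to 0.34 for PHOSPHO2. A call that misses the threshold does not show that a gene was equal in the groups. PHOSPHO2 and KLHL23 overlap in a read-through transcript, so the division of their reads is uncertain. Single libraries decided some small calls. The fall of SP3 was not called without parental replicate 3 (-0.14) or resistant replicate 2 (-0.12) on the log2 scale. That of UBR3 lost its call when parental replicate 3 (-0.15), or replicate 1 (-0.19) or 2 (-0.18) of the resistant form, was left out. FASTKD1 was called lower without parental replicate 2 (-0.18), and STK39 was called higher without resistant replicate 2 (0.19).

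Levels of different genes were compared per length only. On the FPKM scale HNRNPA3 led in both forms, at 311 ± 10.3 in the parental and 609 ± 23.3 in the resistant libraries (SD, n = 3). In the parental form OLA1 (171 ± 9.17) and SSB (135 ± 1.79) followed. In the resistant form the next were NCKAP1 (197 ± 9.18), ASNSD1 (174 ± 3.85), ZC3H15 (165 ± 6.68), NFE2L2 (162 ± 3.74) and ORMDL1 (159 ± 2.40), all from the second or the third stretch. Among these resistant levels ASNSD1, ZC3H15, NFE2L2 and ORMDL1 lay close together. Replicates of a group lay close together. For the 50 members with a parental mean of at least 5 CPM the median SD of log2 CPM was 0.07 in the parental and 0.06 in the resistant group, and the highest was 0.19 and 0.20.

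Genes of the same stretch that are not members were taken from a list set by their place on the chromosome, with 61 rows of which 43 were tested. This list was also drawn up with earlier results of these data known. Its values are a description, and its adjusted p-values are no independent evidence of a difference. Means of 3 libraries are given with their SD here and for the runs that follow. In edgeR's quasi-likelihood test 31 of the 43 rose, 4 fell and 8 were not called, and 26 rose at least 2-fold. Of the 43, 72.1% were called higher and 60.5% at least 2-fold higher, against 27.3% and 5.58% of all genes tested. The median log2 fold change of the 43 was 1.5. Those with the largest change at a mean of at least 5 CPM were NEMP2, CALCRL and C2orf88. NEMP2, a nuclear envelope protein gene between MFSD6 and NAB1, rose from 10.7 ± 1.16 CPM to 76 ± 2.2 CPM (SD, n = 3, edgeR adjusted p = 6.1e-11). CALCRL, the receptor subunit for adrenomedullin and CGRP, rose 6.40-fold (edgeR adjusted p = 1.0e-08). C2orf88, a small protein that anchors protein kinase A, lies beside PMS1 and rose 6.0-fold (edgeR adjusted p = 2.8e-07). DNAJC10, a disulfide reductase of the endoplasmic reticulum, rose from 167 ± 9.65 CPM to 660.3 ± 28.6 CPM (edgeR adjusted p = 9.6e-11). The integrin gene ITGAV went from 113 ± 12.2 CPM to 345 ± 23.4 CPM, 3.05-fold higher (edgeR adjusted p = 1.0e-07). HOXD8 rose 3.26-fold and was the only tested HOXD gene on the list, since HOXD3, HOXD4 and HOXD9 to HOXD13 had too few counts. Inside the first stretch the sodium channel gene SCN2A rose from under 1 CPM to 4.24 ± 0.163 CPM (SD, n = 3). Beyond its end the sodium channel gene SCN9A and the glycosyltransferase gene B3GALT1 rose from under 1 CPM, to 9.48 ± 1.27 CPM and 6.86 ± 0.338 CPM (SD, n = 3). For SCN9A, 10 parental and 756 resistant counts gave a ratio of 72.7 (exact 95% counting interval 39.3 to 152). On FPKM its rise was smaller, from a mean of 0.0567 in the parental to 1.57 in the resistant libraries. That log2 ratio of 4.79 stood against 6.13 in the edgeR fit, and the cause was not tested.

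With members and these genes in a single order, the 3 stretches formed runs of higher calls without a break among the listed genes tested. The first, from SCN3A to B3GALT1, held 7 genes. The second, from LNPK to TTN, held 16 genes, 10 of them at least 2-fold higher. The third, from UBE2E3 to NAB1, held 31 genes, 28 of them at least 2-fold higher, with a median log2 fold change of 1.81. ATF2 lies before ATP5MC3 and so outside the second run. The exceptions to the 2-fold rise in the third run were ITPRID2 (log2 fold change 0.32 ± 0.04 SE), FSIP2 (0.27 ± 0.10 SE) and the member WDR75 (0.97 ± 0.04 SE). At the start of the second run the change was abrupt. ATP5MC3, a subunit of mitochondrial ATP synthase, had 177 ± 12.1 CPM and 155 ± 4.18 CPM with a log2 fold change of -0.19, while the next listed gene, LNPK, an endoplasmic reticulum protein, had 42.5 ± 3.26 CPM and then 166 ± 13.3 CPM, 3.92-fold higher (edgeR adjusted p = 2.4e-09). ZNF385B, between SESTD1 and CWC22, rose 2.84-fold (edgeR adjusted p = 1.5e-09). FSIP2 was not called without parental replicate 1, 2 or 3 (log2 fold changes 0.23, 0.28 and 0.28) or without resistant replicate 2 or 3 (0.24 and 0.23), and PDE1A, another gene of this run, was not called without parental replicate 1 or 2 or resistant replicate 3 (0.82, 0.96 and 0.92 on the log2 scale). In the second run TTC30B was not called by DESeq2 (0.67), nor without parental replicate 2 or 3 or resistant replicate 1 (0.62, 0.57 and 0.63). PDE11A of the second run was not called on FPKM with a pseudocount of 0.1 (1.03). FSIP2 also lost its call with RLE factors (0.26), without a filter (0.25), by DESeq2 (0.26) and on FPKM (0.20 and 0.27 at pseudocounts of 1 and 0.1). PDE1A also lost it by DESeq2 (1.03) and on FPKM with a pseudocount of 1 (0.18), and was not tested under the filter of 1 CPM. The unbroken runs thus hold for the edgeR fit with TMM factors and not under every alternative. The fall of ATP5MC3 was not called with library sizes alone (log2 fold change -0.10) or on FPKM (-0.09 with either pseudocount).

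**Figure D4:**
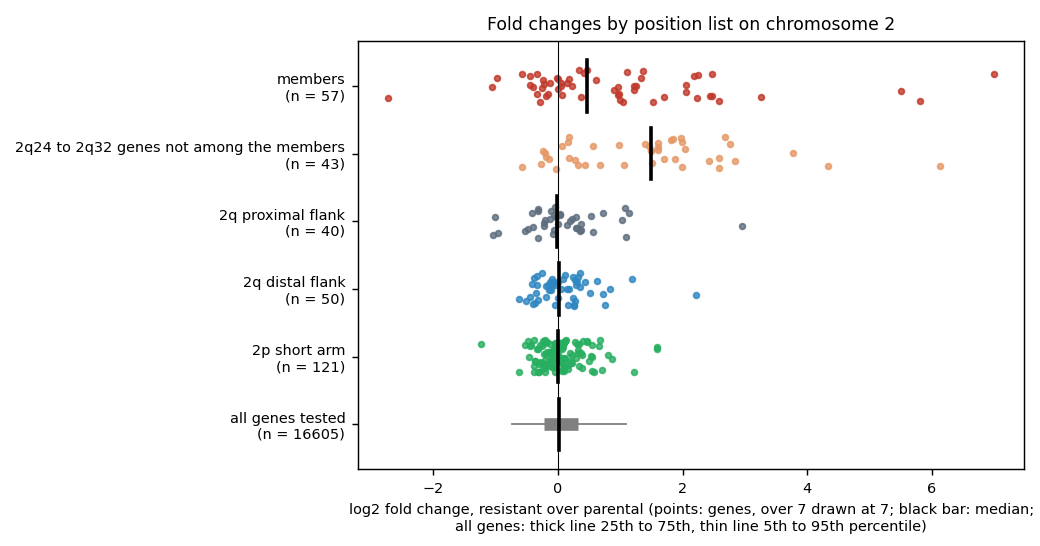
Log2 fold changes of resistant over parental cells (horizontal axis) for the tested genes of 5 lists by place on chromosome 2 and for all genes tested, with points for genes (over 7 drawn at 7) and black bars for medians. The members and the other genes of the stretch reach further to the right than the flanking lists and the short arm, whose medians lie near 0.

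Outside the stretch the listed genes of chromosome 2 had medians near the 0.02 of all genes tested. On the side towards the centromere 40 genes were tested, of which 14 rose, 15 fell and 5 rose at least 2-fold, with a median log2 fold change of -0.02. On the side towards the end of the long arm 50 were tested, of which 20 rose, 13 fell and 2 rose at least 2-fold, with a median of 0.02. On the short arm 121 were tested, of which 32 rose, 35 fell and 3 rose at least 2-fold, with a median of -0.01. Called were 72.5% on the centromere side, 66% on the distal side and 55.4% on the short arm, against 53.8% of all genes tested. The shares called higher were 35%, 40% and 26.4%, against 27.3%. Those at least 2-fold higher were 12.5%, 4% and 2.48%, against 5.58%. Medians near 0 therefore do not make the flanks equal to all genes. No test between these lists was made. Among the largest changes by the naming rule were those of RND3, IFIH1 and ACVR1C on the first flank (log2 fold changes 1.14, -1.05 and 1.02), of FZD7 and SLC39A10 on the second (0.76 and -0.63), and of TRIB2, LPIN1 and SLC1A4 on the short arm (1.59, -1.24 and 1.22), each with an edgeR adjusted p of 1.7e-04 (ACVR1C) or lower. At means below 5 CPM KYNU, a tryptophan-degrading enzyme on the first flank, and AOX1, an aldehyde oxidase on the second, had log2 fold changes of 2.95 ± 0.29 (SE) and 2.22 ± 0.22 (SE).

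The share of higher calls over all genes depended on the scaling. With library sizes alone 65.3% of the called genes were higher, against 50.8% with TMM factors. Among the members 35 were then called higher and 13 lower. The signs of the members that were not called are not firm, and GORASP2, DYNC1I2 and CWC22 had slightly positive values with library sizes alone.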

How the data were processed

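RNA of 3 parental and 3 oxaliplatin-resistant HCT116 samples was sequenced from libraries made with a SMARTER mRNA kit, per the labels' protocols. Groups and replicate numbers came from the sample titles and columns from the sample descriptions. The deposited read counts are whole numbers per gene with no normalization. The second deposited table is taken as FPKM computed by the authors, a unit inferred from its values, since TPM with rows left out would look alike. The sources used here do not name the aligner, counter, annotation or strand setting. Mouse is the labelled organism, and mouse builds stand in the submitters' processing notes, while 30616 of 31456 rows carry human Ensembl identifiers, so no mouse reference, coordinate or sequence was used. The other 840 rows are gene models without an Ensembl identifier (0.915% of counts, 503 tested).

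Differences were tested with edgeR 4.0.16 in R 4.3.3 (TMM, filterByExpr, robust glmQLFit and glmQLFTest, two-sided, Benjamini-Hochberg over 16605 genes, threshold 0.05). The SE is the log2 fold change divided by the square root of F. Alternatives were RLE factors, library sizes alone, a filter of 1 CPM in 3 libraries, no filter, DESeq2 1.42.0, limma 3.58.1 on log2(FPKM + 1) and log2(FPKM + 0.1), the replicate number as a block, rows of a symbol summed, and each library left out. The fits were also run on simulated data with a constant spread between libraries and 200 changed genes, all well counted. Those settings differ from the uneven spread of these libraries and leave out genes near the floor, so nothing is read from that run. No exact permutation test was run, since 3 libraries against 3 cannot give a two-sided p under 0.10.

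The members and lists were chosen with earlier results of these data known. The order along the chromosome and the lists of neighbours come from general knowledge of the human map, not from the files, and hold no coordinates. They do not hold every gene of the stretch. By rule, values in every library are given for NFE2L2, TTN, ASNSD1, PMS1 and each member called with a change of 1.5-fold or more, and from each other list the 3 largest called changes at a mean of 5 CPM. The further genes named outside the members were picked after their values were seen. Some genes of the lists are not reported here by name.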

Additional observations from a re-analysis of the deposited data

How the results depend on the processing

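Of 854 fits of a member under 15 alternatives, 832 kept their side of the threshold, 15 lost the call and 7 gained it. No called member changed direction, while in 21 of the 832 fits the sign turned for 1 of 7 members not called in either fit (COBLL1, FASTKD1, KLHL23, GORASP2, DCAF17, DYNC1I2 and CWC22). The call held with its direction under every alternative that tested the gene for 42 of the 47 called members. The exceptions were BBS5, PDK1, SLC25A12, SP3 and UBR3. The members' median log2 fold change of 0.46 became 0.55 with library sizes alone, and on FPKM 0.39 with a pseudocount of 1 and 0.52 with a pseudocount of 0.1. With a library left out it ranged from 0.43 to 0.50, with 32 to 33 members called higher, 13 to 16 lower and 7666 to 9209 of all genes called. The fold changes of SCN3A, CSRNP3, ANKAR and RAPGEF4 were much smaller on FPKM with a pseudocount of 1, at 0.35, 1.14, 0.98 and 0.40. The replicate block called 9973 genes, 33 members higher and 16 lower. Same-numbered libraries correlated in their deviations at 0.07, 0.14 and 0.01, and parental replicate 3 correlated best with resistant replicate 1 (0.09), so the numbers were not taken as pairs. Depth limits the folds of members at or near 0 in the parental libraries.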

Other observations

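The fold on the deposited FPKM and the fold on counts were close for most members. The log2 ratio of mean FPKM had the same sign as the count fold change in 52 of the 56 members with an FPKM above 0 in both groups, and the median difference was 0.06. It differed by more than 0.5 for RAPGEF4 and SESTD1. RAPGEF4 had 0.09 FPKM in the parental and 0.45 FPKM in the resistant libraries, a log2 ratio larger than on counts by 0.86. SESTD1 had 7.35 FPKM in the parental and 2.44 FPKM in the resistant libraries, against a 6.61-fold lower CPM. Whether the transcripts used differ between the forms was not tested.

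The antisense gene HOXD-AS2 of the HOXD cluster had 0.489, 0.455 and 0.611 CPM in the parental and 2.33, 2.5 and 2.93 CPM in the resistant libraries, although most HOXD genes were at or near the floor. TTC30A, an intraflagellar transport gene, rose 5.97-fold (edgeR adjusted p = 1.4e-08), and its close copy TTC30B beside it had a log2 fold change of 0.68 ± 0.22 (SE), with the division of reads between the pair uncertain.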
